A study of Mus musculus with 3 samples.

Results

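The 43 autophagy and lysosome genes described here run from the kinase that starts autophagosome formation to the proteases of the lysosome. They were taken by symbol through the Entrez identifiers of the count table, and all 43 were found among its 26286 rows. The data are RNA-seq counts of 3 libraries of 1 group, made from pre-B cells sorted from mouse bone marrow. A level here is an RPKM, the reads divided by the length of the gene and the size of the library, and errors are SDs over the 3 libraries. The donors were CAG-rtTA3;TRE-GFP-shLuc.1309 bitransgenic mice, in which a transactivator under the widely active CAG promoter turns on GFP linked to a control hairpin. They received doxycycline (Dox) for 3 days, and cells that were GFP+, B220+ and CD25+ and lacked surface IgM and Kit were sorted. All 3 libraries carry the transgenes and the drug, so no level here is from an untreated animal. The labels give no age, sex or number of mice. Replicate 1 held Xist, the RNA of the inactive X chromosome, at 22609 counts against 94 and 70 in replicates 2 and 3, and the Y-linked genes Ddx3y at 1, 1950 and 4881 counts and Eif2s3y at 0, 1635 and 3573 counts. Replicate 1 thus carried female transcripts and replicates 2 and 3 male ones, so replicate 1 came from a different animal or animals than the others. For replicates 2 and 3 no source used here says so, and the spread between them may be technical.

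Autophagy encloses cytoplasm in a double membrane that fuses with the lysosome, where acid proteases digest the content. The ULK kinase complex starts the process, a lipid kinase complex around beclin 1 marks the membrane, and 2 ubiquitin-like conjugation steps attach proteins of the LC3 and GABARAP families to it, which cargo receptors bind. TFEB and TFE3 are transcription factors that activate lysosome genes through the CLEAR element, and in lymphocytes autophagy is known for the removal of damaged mitochondria.

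Total counts were 12418054, 12021576 and 32086649 in replicates 1, 2 and 3. The sort markers followed the gate: Il2ra, which encodes CD25, stood at 89.3 ± 17.7 RPKM and Kit at 0.791 ± 0.327 RPKM. The 11 pre-B markers summed to 4777, 4940.4 and 4384 RPKM in replicates 1, 2 and 3. Only 2 of these 11 had a log2 fold change above 0 in replicate 3 against the others, beside 5919 of the 12147 genes tested. Their log2 fold changes ran from -1.17 to 0.497, with Rag1, Il2ra and Kit among the lower genes and Igll1 higher. The 15 neutrophil markers summed to 1413 RPKM in replicate 1, 1703 in replicate 2 and 2501 in replicate 3, and S100a9 was at 568, 702 and 1052 RPKM. For the 15 monocyte and macrophage markers the sums were 191, 223 and 271 RPKM, and 6 of 15 reached 1 RPKM in every library. Lyz2 made up most of the sum, followed by Itgam (15.4 ± 0.877 RPKM), Ly6c2 (10.8 ± 2.83 RPKM) and Cd68 (6.36 ± 1.15 RPKM). The defining macrophage genes Csf1r (1.78 ± 0.331 RPKM), Adgre1 (listed by its older symbol Emr1, 0.365 ± 0.107 RPKM) and C1qa (0.443 ± 0.295 RPKM) were low, and Marco had no counts. Of 16 mitosis genes all were highest in replicate 3, with sums of 1795, 1432 and 2038 RPKM. Of the 12147 genes tested, 4265 were highest in replicate 3. Of 10 T and NK cell markers 2 reached 1 RPKM in every library, and of 9 erythroid markers 4 did. All 15 neutrophil markers reached it, with a median of 42.6 RPKM. Beside these counts, 64.0% of the 17423 genes with a count reached that level in every library. Neutrophils and macrophages are rich in lysosomal proteases. In these bulk libraries fewer cells of a type and less RNA per cell cannot be told apart.

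All 43 genes reached at least 1 RPKM in every library, against 64.0% of the 17423 genes with a count, and 31 of them reached 10 RPKM in every library, against 38.2%. Their median was 21.04 RPKM, set beside 5.46 RPKM for all genes with a count. The range was wide, 112-fold from Wipi1 to Gabarap. Of 42 neighbours in the order of levels, 29 overlapped in their 3 values, so most of the ranking in the middle is not resolved. Lengths enter this ranking: by CPM, which ignores length, Tax1bp1 was at rank 1 and Gabarap at rank 6.

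**Figure D1:**
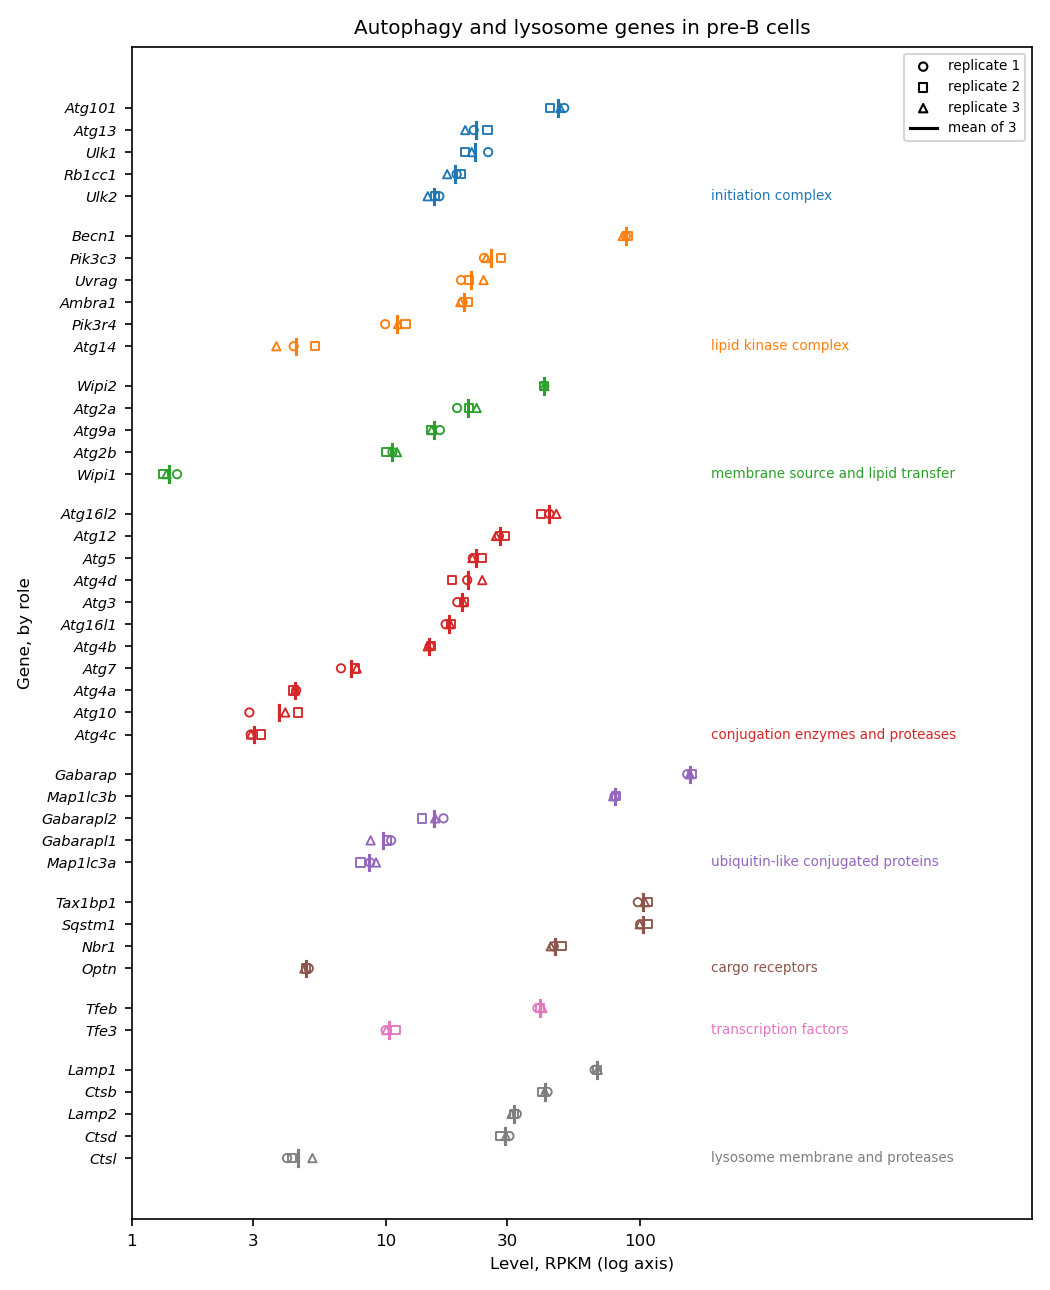
Level of each gene in RPKM on a log axis, with 1 symbol for each of the 3 libraries and a bar at the mean, grouped and coloured by role. Gabarap lies at 157 RPKM and Wipi1 at 1.40 RPKM, and for most genes the 3 symbols nearly coincide.

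The initiation complex was led by Atg101, a stabilising partner of Atg13, at 50.4, 44.4 and 48.6 RPKM in replicates 1, 2 and 3. All 3 values lay above every value of the other 4 members. By CPM, without length, this order turned: Atg101 was the lowest of the 5, at rank 23 of the 43, and Rb1cc1 the highest, at rank 11. The scaffold Atg13 followed at 22.2, 25.2 and 20.5 RPKM. The kinase Ulk1 was at 25.3, 20.5 and 21.8 RPKM and overlapped Atg13. The FIP200 gene Rb1cc1, the large scaffold of the complex, stood at 18.7 ± 1.20 RPKM and the second kinase, Ulk2, at 15.5 ± 0.827 RPKM. Ulk1 exceeded Ulk2 in each library, by 0.52 ± 0.13 on the log2(RPKM + 0.5) scale.

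In the lipid kinase complex, Becn1, which encodes beclin 1, stood far above its partners at 88.1, 89.9 and 85.7 RPKM. By CPM, without length, Becn1 was still the highest but the gap was smaller. It stood at 179 CPM against 107 CPM for Ambra1, whose row is longer (5290 against 2031 bases). The catalytic subunit Pik3c3 was at 25.8 ± 2.17 RPKM and its regulatory partner Pik3r4 at 11.02 ± 1.01 RPKM. Of the 2 proteins that share a place on beclin 1 and direct the complex, Uvrag (endosomes) had 19.8, 21.2 and 24.3 RPKM and Atg14 (autophagosomes) 4.33, 5.26 and 3.71 RPKM. Every Uvrag value was above every Atg14 value. Ambra1, which binds beclin 1 and ULK1, stood at 20.3 ± 0.767 RPKM. In GRCm38 models 29.6% of the Becn1 exon bases lie opposite exons of another gene, mainly Cntd1. No source used here says whether reads were counted by strand.

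Downstream of the lipid kinase, the WIPI proteins bind its product. Wipi2 was at 42.0, 41.9 and 42.1 RPKM and Wipi1 at 1.51, 1.33 and 1.37 RPKM, the lowest of the 43. The difference was 4.48 ± 0.07 on the log2(RPKM + 0.5) scale, with a ratio of the mean levels of 29.97. The lipid transfer proteins Atg2a (21.04 ± 1.86 RPKM) and Atg2b (10.6 ± 0.504 RPKM) were closer, Atg2a being higher by 0.96 ± 0.12. Atg9a, the membrane protein of the seed vesicles, stood at 15.5 ± 0.679 RPKM. Another annotated gene on the same strand, Gm29253, covers 41.8% of the Atg9a exon bases. Reads of the 2 genes in that part cannot be told apart, and no row of the count table was matched to Gm29253.

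The conjugation genes covered a range from 3.04 to 44.0 RPKM. Atg16l2 was the highest, at 44.0, 40.9 and 46.9 RPKM, and Atg16l1 had 17.2, 18.02 and 17.9 RPKM. ATG16L1 is the well-studied scaffold that places the conjugation machinery on the membrane, and ATG16L2 is its less studied paralog. Atg16l1 minus Atg16l2 was -1.29 ± 0.11, below 0 in all 3 libraries. Atg12, the ubiquitin-like protein, was at 28.2 ± 1.18 RPKM and Atg5, to which it is joined, at 22.6 ± 1.13 RPKM. The E2-like enzyme Atg3 stood at 19.9 ± 0.655 RPKM. The shared E1-like enzyme Atg7, needed by both conjugation steps, was at 6.66, 7.56 and 7.68 RPKM. Its other E2-like partner, Atg10, which acts on ATG12, had 2.90, 4.51 and 4.02 RPKM, from 58, 87 and 208 counts. The highest value of Atg10 was 1.55 times the lowest, the widest spread of the 43. In a chi-square test against Poisson counting noise this spread did not pass 0.05 (adjusted p = 0.0507).

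The ATG4 proteases trim LC3 and GABARAP proteins and later release them from the membrane. Atg4d (20.9, 18.3 and 24.0 RPKM) and Atg4b (14.9, 15.03 and 14.6 RPKM) did not overlap each other, and both lay above Atg4a (4.39 ± 0.0561 RPKM) and Atg4c (3.04 ± 0.167 RPKM). Atg4b exceeded Atg4a by 1.65 ± 0.03 and Atg4d exceeded Atg4c by 2.60 ± 0.25. The Atg4a level is uncertain, since 60.8% of the words of 31 bases in its transcripts also occur in the pseudogene Atg4a-ps, which has no row in the count table. For Atg4d, 23.2% of exon bases lie opposite another gene, Kri1.

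The proteins that are conjugated form 2 families, and each had 1 dominant gene. Gabarap stood at 154, 160.3 and 157 RPKM, above every value of the other 42 genes. Map1lc3b, the LC3B gene, was at 79.6, 80.5 and 78.5 RPKM. Map1lc3a had 8.68, 7.96 and 9.15 RPKM, and Map1lc3b exceeded it by 3.14 ± 0.11. Gabarapl1 had 10.5, 10.1 and 8.71 RPKM, and Gabarap exceeded it by 3.94 ± 0.15, a ratio of mean levels of 16.1. No word of 31 bases in Gabarap transcripts was shared with another gene.

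Gabarapl2, which encodes GATE-16, was listed at 16.9, 13.9 and 15.6 RPKM, from 132, 105 and 317 counts. The row of Gm3724, an annotated pseudogene that shares 11.2% of the Gabarapl2 words of 31 bases, held 469, 495 and 1220 counts, or 43.5, 47.6 and 43.7 RPKM. The pseudogene row was therefore higher than the gene in every library. It was looked up because of the shared sequence, and its values were seen before it was chosen for the text. No source used here says how reads shared by the gene and its copy were counted, so the level of Gabarapl2 is uncertain. Its excess over Gabarapl1, 0.64 ± 0.19, turned to -0.80 with CPM.

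Of the 4 cargo receptors, 3 were among the 8 highest of the 43 genes. Tax1bp1, which links ubiquitinated cargo to LC3 and restrains inflammatory signalling, had 98.2, 107 and 105 RPKM. Sqstm1, which encodes p62, had 100.3, 107 and 99.9 RPKM and overlapped Tax1bp1. Nbr1, a receptor related to p62, was at 45.8, 49.2 and 44.6 RPKM. Sqstm1 exceeded Nbr1 by 1.13 ± 0.02 on the RPKM scale but not in CPM, where the difference was -0.011, the row of Nbr1 being longer (4444 against 2000 bases). Optn, a receptor of mitophagy, stood apart at 4.97, 4.84 and 4.78 RPKM, and Tax1bp1 exceeded it by 4.27 ± 0.09. For Sqstm1, 20.5% of exon bases lie opposite another gene, Mrnip.

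Of the 2 transcription factors, Tfeb had 39.5, 40.5 and 41.4 RPKM and Tfe3 9.98, 10.9 and 10.1 RPKM. Tfe3 minus Tfeb was -1.92 ± 0.07. The remaining members of their family, named after their values were seen, were close to the detection limit, with Mitf at 0.132 ± 0.0473 RPKM and Tfec at 0.131 ± 0.059 RPKM. In the list of MiT factors and regulators the calcineurin subunit Ppp3r1 (41.3 ± 3.51 RPKM) and the Rag GTPase gene Rragc (33.8 ± 2.27 RPKM) were highest. The zinc finger gene Zkscan3 (30.6 ± 2.11 RPKM) came next and Fnip2 (0.101 ± 0.0586 RPKM) was lowest. Ppp3r1 shares 14.5% of its words of 31 bases with other genes, so its level is uncertain.

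The lysosome genes ran from Lamp1 to Ctsl. The membrane glycoprotein gene Lamp1 had 66.4, 68.0 and 68.3 RPKM and Lamp2 32.8, 32.0 and 31.3 RPKM, a difference of 1.07 ± 0.06 (0.21 with CPM). Among the proteases, the cathepsin gene Ctsb had 43.3, 41.1 and 42.3 RPKM, Ctsd 30.7, 28.3 and 29.7 RPKM and Ctsl 4.08, 4.28 and 5.14 RPKM. Ctsb exceeded Ctsl by 3.10 ± 0.17 and Ctsd exceeded it by 2.59 ± 0.17. The highest library was 1.03 times the lowest for Lamp1, 1.05 times for Ctsb and 1.08 times for Ctsd. For Ctsl it was 1.26 times, from 100, 101 and 326 counts, with replicate 3 highest. In a chi-square test against Poisson counting noise this spread did not pass the threshold (adjusted p = 0.106). Replicate 3 had the highest sums of neutrophil, erythroid, and monocyte and macrophage markers, and of mitosis genes. The part of neutrophil RNA in the levels of the lysosome genes was not tested. The annotated gene Gm49369 covers 31.5% of the Ctsd exon bases on the same strand, and 16.3% of those of Ctsb and 28.2% of those of Ctsl lie opposite other genes.

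TFEB and TFE3 bind the CLEAR element, whose core, the palindrome TCACGTGA, was searched in RefSeq promoter windows (GRCm38.p6, from 250 bases before to 50 bases after each start, 36 of the 43 genes matched). It was present in 2 of the 36 genes (5.56%), Ctsd and Atg3, and in 304 of 27025 genes in all (1.12%). Among 101 matched genes of 8 further lists of autophagy and lysosome genes it was present in 13 (12.9%), including 3 of 11 vacuolar ATPase subunits. The shorter E-box CACGTG, which lies inside that core, was in 7 of the 36 (19.4%), in 3 of the 4 matched lysosome genes and in 8.09% of all genes. As palindromes both read the same on either strand. The windows around the core, in capitals, are shown for both member genes and, for comparison, for 3 of the 13 other genes, picked as examples after the matches were seen, each as 30 bases of the gene's strand:
Ctsd, chr7:142387908-142387937, minus strand: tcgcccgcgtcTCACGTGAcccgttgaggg
Atg3, chr16:45158746-45158775, plus strand: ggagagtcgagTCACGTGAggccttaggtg
Mcoln1, chr8:3500462-3500491, plus strand: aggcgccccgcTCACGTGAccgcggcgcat
Cln3, chr7:126583340-126583369, minus strand: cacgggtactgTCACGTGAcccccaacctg
Vps33a, chr5:123573026-123573055, minus strand: agcgactcggaTCACGTGAacgtcccgtca

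The core begins 99 bases before the start in Ctsd and 72 bases before it in Atg3. These genes with the core were not at 1 level: Ctsd stood at 29.6 ± 1.18 RPKM, Atg3 at 19.9 ± 0.655 RPKM, the lysosomal calcium channel gene Mcoln1 at 14.5 ± 0.192 RPKM, Cln3, a lysosomal membrane protein gene, at 9.13 ± 0.797 RPKM and Vps33a, a subunit of the fusion tether, at 18.4 ± 1.82 RPKM. Vps33a holds a further core nearer its start. Over the 13 other genes the levels ran from 1.79 RPKM for Gla to 72.7 RPKM for Atp6v0e. A match is a description of these letters, and no binding was measured.

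For the 15 differences of related genes, each had 1 sign in all 3 libraries. The pairs were chosen with earlier results of these data known, so the shared signs are a description only. With 3 libraries the smallest two-sided p of an exact sign-flip test is 0.25, which all 15 reached (0.25 after Benjamini-Hochberg adjustment), so none could pass 0.05. Without gene length 2 of them changed sign, those of Gabarapl2 and of Sqstm1.

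**Figure D2:**
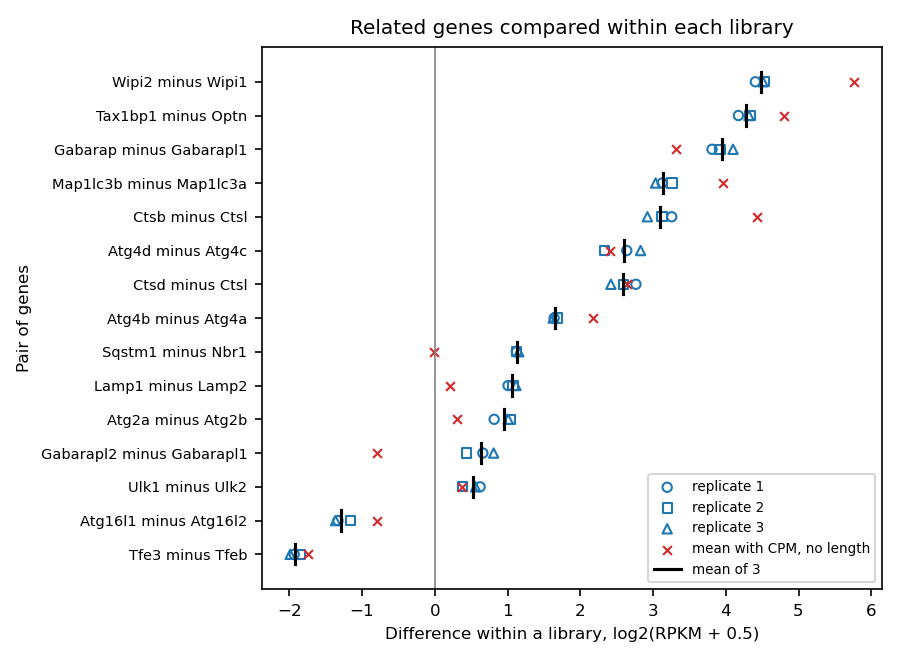
Difference of the first gene minus the second within each library, on the log2(RPKM + 0.5) scale, for 15 pairs, with a symbol per library, a bar at the mean and a red cross at the mean difference in log2(CPM + 0.5). Wipi2 minus Wipi1 is the largest at 4.48, Tfe3 minus Tfeb the lowest at -1.92, and the crosses of 2 pairs fall on the other side of 0.

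The wider pathway was read from the 8 further lists, 126 genes in all. Of these, 115 reached 1 RPKM in every library, against 64.0% of the 17423 genes with a count. Vacuolar ATPase subunits, which acidify the lysosome, had a median of 41.1 RPKM, and all 16 passed 1 RPKM in every library, led by Atp6ap1 (113 ± 9.30 RPKM), Atp6v0b (86.6 ± 3.88 RPKM) and Atp6v0c (85.0 ± 4.19 RPKM), with Atp6v0a1 lowest (7.87 ± 0.993 RPKM). The list for autophagosome fusion had a median of 32.1 RPKM, led by the GTPase Rab7 (112 ± 0.654 RPKM) and the SNARE Vamp8 (93.4 ± 2.60 RPKM). Grn (76.8 ± 4.80 RPKM), which the grouping used here places in this list, was next, and Epg5 was lowest (9.83 ± 0.582 RPKM). Whether Grn acts in fusion was not tested. Rab7 shares 16.3% of its words with other genes and Atp6v0c 11.9%, so the levels of both are uncertain. Lysosomal hydrolases and activators had a lower median, 12.9 RPKM. Psap, the precursor of the saposins, was far above the rest of them at 469, 468 and 505 RPKM, before Gm2a (65.2 ± 4.84 RPKM) and Ppt1 (63.8 ± 7.36 RPKM), and Acp2 was lowest (1.37 ± 0.296 RPKM).

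Among lysosomal membrane and transport proteins (median 13.7 RPKM) the blood cell protein gene Laptm5 reached 507, 444 and 487 RPKM. Npc2 (67.4 ± 3.26 RPKM), a cholesterol carrier, and the sorting receptor M6pr (53.6 ± 1.86 RPKM) followed. Cd63, a lysosomal tetraspanin gene, was lowest at 0.466, 0.724 and 0.839 RPKM, and 15.9% of its words are shared with other genes. The other cathepsins were led by Ctsz (71.2 ± 5.84 RPKM), Ctss (45.4, 65.1 and 47.2 RPKM) and Ctsa (48.4 ± 5.39 RPKM), and Ctsf was at 0 counts, and its level could still be as high as 0.127 RPKM (3 counts in 1 library, counting error only). Ctsh, another cathepsin gene, named after its values were seen, had 4.96, 4.63 and 8.29 RPKM. It was highest in replicate 3 (edgeR adjusted p = 0.368 for replicate 3 against the others). The sums of the neutrophil, erythroid, and monocyte and macrophage markers and of the mitosis genes were highest there as well. The part of other cells in the level of Ctsh was not tested.

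Among receptors of selective autophagy (median 27.8 RPKM), Fkbp8 (135 ± 3.68 RPKM), Phb2 (89.4 ± 2.93 RPKM) and Calcoco1 (55.2, 73.0 and 51.4 RPKM) led. The remaining autophagy factors (median 19.98 RPKM) were led by the beclin 1 inhibitor Bcl2l1 (122.6 ± 3.88 RPKM), by Rubcn (61.3 ± 4.20 RPKM), a negative regulator of the beclin 1 complex, and by Sh3glb1 (49.6 ± 4.49 RPKM). Atg9b, the paralog of Atg9a, was lowest, with 0, 0.0214 and 0.00796 RPKM.

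**Figure D3:**
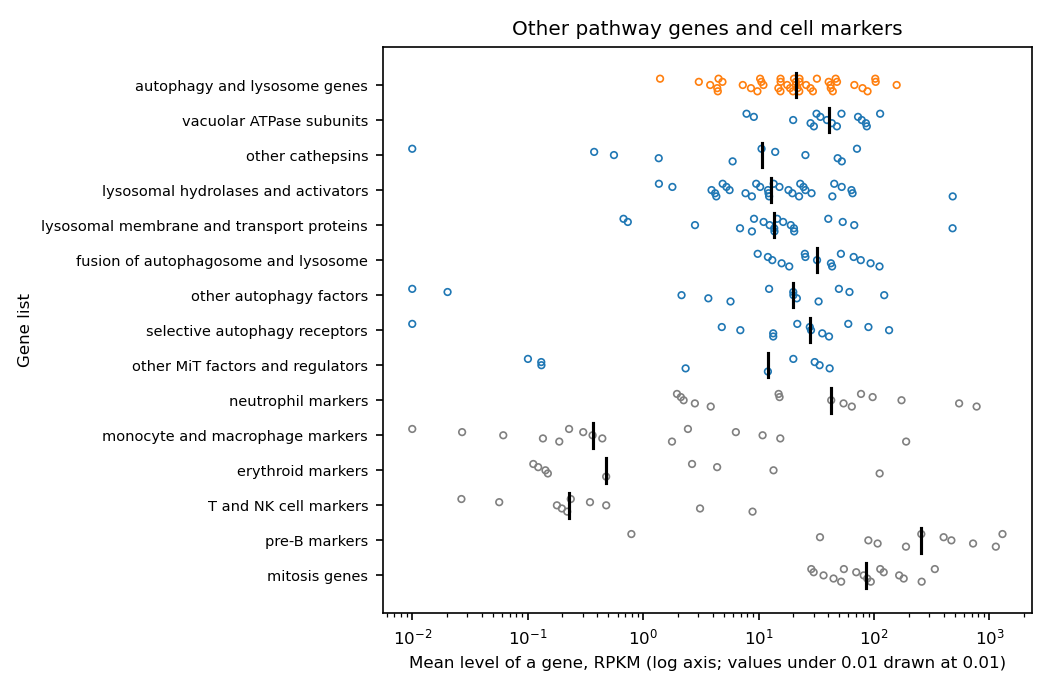
Mean level of each gene in RPKM on a log axis, 1 point per gene, with a bar at the list median: the 43 genes (orange), 8 further pathway lists (blue) and 6 lists of cell type markers and mitosis genes (grey). The medians of the pathway lists lie between 10.6 and 41.1 RPKM. Those of the macrophage, erythroid and T cell lists lie below 1 RPKM. The neutrophil list has a median of 42.6 RPKM, the mitosis genes 84.4 RPKM and the pre-B markers 257 RPKM.

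The spread between libraries was small for most of the 43. The median ratio of the highest to the lowest library was 1.10 for them, beside 1.21 for the 12147 genes tested, whose median level is lower (13.2 RPKM). The summed level of the 43 was 1317, 1345 and 1328 RPKM in replicates 1, 2 and 3. In a chi-square test against Poisson counting noise 15 of the 43 (34.9%) differed between libraries, against 54.6% of all genes tested (Benjamini-Hochberg adjusted p under 0.05 over all). In edgeR's quasi-likelihood fit 0 of the 43 were more variable than genes of like abundance, 0 also at an unadjusted p under 0.05 and 0 in a robust fit, against 0.0165% and 5.30% of all genes at the adjusted and unadjusted thresholds.

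Those that differed by more than counting noise were 4 of 5 initiation complex genes, 4 of 6 lipid kinase complex genes and 3 of 4 cargo receptors. They were 2 of 5 membrane source and lipid transfer genes, 2 of 11 conjugation genes and 0 of 2 transcription factors. In both the conjugated proteins and the lysosome genes they were 0 of 5. The roles were not compared with each other, and the share over all genes tested was 54.6%. Ulk1 had the smallest adjusted p of this test (5.57e-08) and was highest in replicate 1. Atg2a (6.87e-08) and Uvrag (5.46e-07) were highest in replicate 3 and lowest in replicate 1. Atg4d (1.33e-07) was highest in replicate 3 and lowest in replicate 2. Atg13 (1.14e-06) and Atg14 (0.000191) were highest in replicate 2 and lowest in replicate 3. Wipi2 lay at the other end, with an adjusted p of 0.991. The number called was 11 without replicate 1 and 8 without replicate 2 or without replicate 3. Over all genes tested the number fell as well, from 6627 to 5590, 4256 and 3145, and of the 15 genes Atg2a alone passed in all 3 of those cases.

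The libraries also differ by a label, since replicate 3 was handled with CASAVA 1.8.0 and the others with 1.8.2. With 1 library against 2, the version and the library cannot be told apart. In edgeR's quasi-likelihood test 0 of the 43 were higher and 0 lower in replicate 3, against 0.0576% higher and 0.0165% lower of all genes tested. At an unadjusted p under 0.05 there were also 0 of 43, against 9.62% of all genes, and DESeq2 called 0, against 0.296%. The log2 fold changes ran from -0.37 (SE 0.20, adjusted p = 0.609) for Atg14 to 0.30 (SE 0.23, adjusted p = 0.724) for Ctsl, and 22 of 43 were above 0. Of the 116 tested genes of the 8 further lists edgeR called 0 in either direction, with 4 at an unadjusted p under 0.05 and 0 in DESeq2. In these same libraries, 11 of the 15 neutrophil markers had an unadjusted p under 0.05. After adjustment edgeR called 0 of these markers in either direction and DESeq2 called 3.

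**Figure D4:**
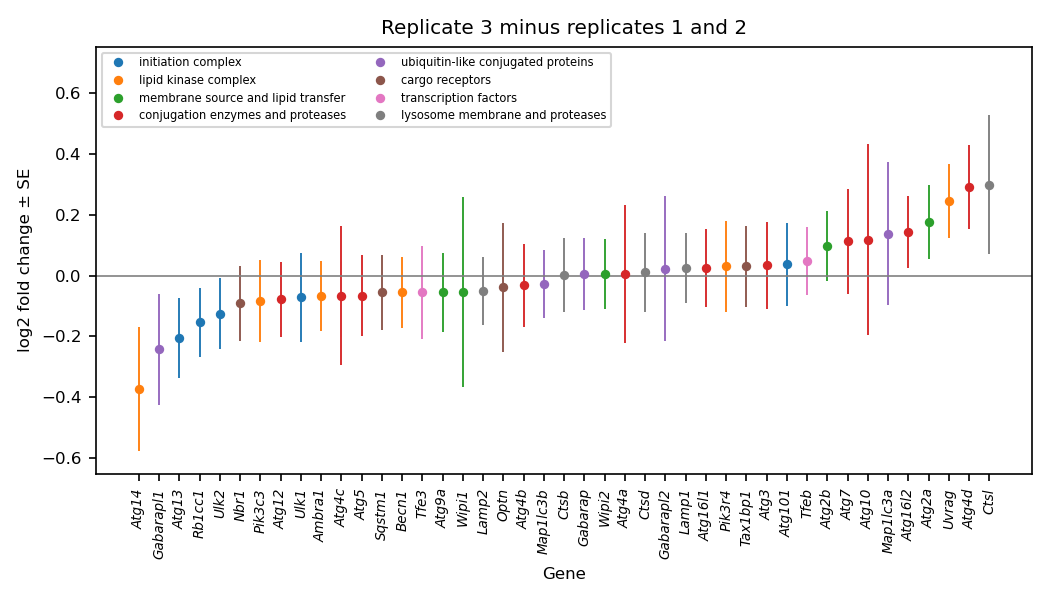
log2 fold change of replicate 3 over replicates 1 and 2 for each of the 43 genes, in order of size and coloured by role, with bars of 1 standard error from edgeR. The values lie between -0.37 and 0.30, and no gene passed the test.

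Of the 43 genes, Lamp2, Tfe3 and Atg4a are X-linked. Their highest values were 1.05, 1.09 and 1.03 times their lowest, and Tfe3 was lowest and Lamp2 and Atg4a highest in replicate 1, the library with Xist.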

How the data were processed

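RNA-seq was measured in 3 libraries of 1 group. The deposited values are raw read counts per Entrez gene with a gene length in bases. Per the submitters' processing notes the authors used featureCounts and mm9. CASAVA was 1.8.0 in replicate 3 and 1.8.2 in the other libraries. For aligner, annotation, read length and strand setting: not given in the sources used here.

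Symbols were matched by Entrez identifier to RefSeq on GRCm38.p6 (24176 of 26286 identifiers, all 43 genes, and 202 of 203 genes of the other lists). RPKM used TMM-scaled totals (factors 1.0003, 0.9969 and 1.0028). Tests used R 4.3.3, edgeR 4.0.16 and DESeq2 1.42.0 on 12147 genes kept by filterByExpr (minimum count 10, minimum total 15), with Benjamini-Hochberg adjustment over all of them and a threshold of 0.05. Differences of gene pairs used a pseudocount of 0.5. Shared words of 31 bases and exon overlaps came from GENCODE transcripts of GRCm38, and no mm9 coordinate was used. Plots used matplotlib 3.10.9.

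The members, lists and pairs were chosen with earlier results of these data known. Named are all 43 genes, the 3 highest and the lowest of each other pathway list, and defining markers of other cells; other genes are said to be chosen later where they appear. The rule also allowed the highest and lowest genes of the marker lists, which are given here mostly by sums or counts. The lowest gene of 1 pathway list and 1 marker are not reported here. In simulated counts the replicate 3 test recovered 97 of 100 genes changed 4-fold and 67 of 100 changed 2-fold, with 9 false calls among 12247 genes. Every simulated gene had the same biological coefficient of variation, 13.1%, and the changed genes all had totals above 100 counts. Real genes vary more in spread, so recovery in the real libraries may be lower. Changes below 2-fold were not simulated. Counts of replicate 3, the deepest library, carry the least counting error. P-values concern these libraries and not animals. Those of the chi-square test measure excess over counting noise, and those of the dispersion test a gene's spread against genes of like abundance.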

Additional observations from a re-analysis of the deposited data

How the results depend on the processing

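No paired analysis was possible because all 3 libraries belong to 1 group. DESeq2 size factors, no scaling or leaving out replicate 1 left all 43 levels within 1 SD of the reported ones. Of the 43 levels, 3 moved by 1 SD or more with replicate 3 thinned to the smallest total. Without replicate 2 there was 1 such level, and without replicate 3 also 1. The 43 genes at the minimum level in every library stayed 43 under each alternative except a minimum of 5 RPKM, which 36 met. Their median, 21.04 RPKM, was 49.8 in TPM and 70.2 in CPM, which are other units, and 20.1 to 21.1 RPKM when 1 replicate was left out. With CPM the difference of Gabarapl2 minus Gabarapl1 was -0.80 and that of Sqstm1 minus Nbr1 -0.011. No difference of the 15 pairs changed sign with another pseudocount (0.1 or 1) or without 1 of the replicates. The count of genes past counting noise, 15, was 8 to 11 without 1 replicate, 16 with DESeq2 size factors or with replicate 3 thinned to the smallest total, and 15 with no scaling or with all genes with a count tested. In the dispersion test and in the comparison of replicate 3 the count of the 43 stayed 0 in each alternative run, while over all genes the first ran from 0 in a robust fit to 46 with all genes tested and the second from 0 to 36. Leaving out replicate 1 or 2 in the comparison of replicate 3 gives 1 library against 1, with fold changes only, and the sign of each of the 6 largest was kept. Depth limits Wipi1 and Atg10 most, with 29 and 58 counts in their lowest libraries.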
